A study of Mus musculus with 18 samples.

Results

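The libraries described here are the 6 made from NIH/3T3 cells 6 days after knockdown of Pus1 (KD6), out of 18 in the series. They were chosen by their labels and comprise 3 input libraries and 3 libraries of small RNA pulled down by an antibody to pseudouridine (Ψ-IP, for immunoprecipitation), with replicates A, B and C on each side. NIH/3T3 is an established mouse fibroblast line, and the other 12 libraries are the same fractions from wild-type (WT) cells and from cells 3 days after the knockdown (KD3). The knockdown used short interfering RNA, per the study's supplement, so no allele was changed. The labels do not say that the replicates are separate cultures, so the p-values measure only the spread between these libraries, which may be technical. Only microRNAs (miRNAs) were counted, and the depth of the Pus1 knockdown therefore could not be checked.

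Ψ is an isomer of uridine that Ψ synthases make in RNA after transcription, and PUS1 is an enzyme of this kind that acts on transfer RNA and on other RNAs. A miRNA is cut from a hairpin precursor, and either arm of the hairpin (the 5p or the 3p strand) can be loaded into an Argonaute protein, which it guides to messenger RNAs mainly through the bases of its seed. An antibody against Ψ can raise a miRNA in the IP library relative to the input, but a ratio of IP to input by itself does not give the position or the fraction of Ψ in a molecule. The comparison asks which miRNAs were relatively more and relatively less abundant after Ψ-IP once Pus1 had been depleted for 6 days.

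The sequences that carry the results are mature miRNAs from RefSeq on GRCm38.p6, written 5′ to 3′ with the seed (bases 2 to 8) in capitals. Of 550 miRNAs tested, 475 were matched to a sequence by name. The first set is the 9 listed let-7 guide strands, which share 1 seed and all had higher levels in Ψ-IP than in input. Of 10 tested miRNAs with this seed these 9 were called higher, and let-7k, which was not listed, was not called.
let-7a-5p: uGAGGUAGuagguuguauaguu
let-7b-5p: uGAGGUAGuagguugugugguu
let-7c-5p: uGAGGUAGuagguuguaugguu
let-7d-5p: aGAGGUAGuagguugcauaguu
let-7e-5p: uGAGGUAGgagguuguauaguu
let-7f-5p: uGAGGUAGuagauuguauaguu
let-7g-5p: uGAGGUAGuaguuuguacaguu
let-7i-5p: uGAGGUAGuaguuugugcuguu
miR-98-5p: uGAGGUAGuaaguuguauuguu

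The next set holds other miRNAs with high ratios of Ψ-IP to input, with miR-10b-5p beside its relative miR-10a-5p.
let-7d-3p: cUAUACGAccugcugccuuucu
let-7b-3p: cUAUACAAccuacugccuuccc
miR-1198-5p: uAUGUGUUccuggcuggcuugg
miR-92a-3p: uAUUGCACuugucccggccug
miR-10a-5p: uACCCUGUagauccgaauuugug
miR-10b-5p: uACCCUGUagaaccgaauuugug
miR-155-5p: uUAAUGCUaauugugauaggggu
miR-125a-5p: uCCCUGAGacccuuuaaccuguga

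Other miRNAs with low ratios follow, with miR-30c-5p, which has the seed of miR-30a-5p and miR-30e-5p.
miR-381-3p: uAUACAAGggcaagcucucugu
miR-300-3p: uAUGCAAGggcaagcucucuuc
miR-210-3p: cUGUGCGUgugacagcggcuga
miR-30a-5p: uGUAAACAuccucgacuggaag
miR-30e-5p: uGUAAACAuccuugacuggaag
miR-30c-5p: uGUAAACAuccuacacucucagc
miR-101a-3p: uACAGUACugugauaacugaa
miR-199a-5p: cCCAGUGUucagacuaccuguuc
miR-24-2-5p: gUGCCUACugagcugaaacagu
miR-140-3p: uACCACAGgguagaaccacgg
miR-455-5p: uAUGUGCCuuuggacuacaucg

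The last set is shown because its members differ from each other by 1 or 2 bases and yet by more than 3 on the log2 scale in their ratio.
miR-17-5p: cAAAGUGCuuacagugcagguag
miR-20a-5p: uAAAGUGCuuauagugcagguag
miR-19a-3p: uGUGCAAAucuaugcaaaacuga
miR-19b-3p: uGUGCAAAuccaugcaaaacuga
miR-100-5p: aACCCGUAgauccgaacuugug
miR-99a-5p: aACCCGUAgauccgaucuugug
miR-181a-1-3p: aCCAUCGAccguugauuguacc
miR-181a-2-3p: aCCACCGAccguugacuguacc
let-7a-1-3p: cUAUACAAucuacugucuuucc
let-7f-2-3p: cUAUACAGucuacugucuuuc

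Replicate A of the KD6 input was very shallow, with 241109 mapped reads against 3989031 to 9256836 in the other 5 libraries. It held reads of 382 miRNAs, against 576 to 888 in the others, and correlated with the other inputs at a Pearson r of 0.927 and 0.917 across 550 miRNAs on the log scale, below the 0.986 between inputs B and C. The 3 IP libraries correlated with each other at 0.957 to 0.963 and with the inputs at 0.764 to 0.856. The main results below are therefore given with and without input A. Reads outside the miRNA rows made up 6.88%, 9.61% and 9.96% of mapped reads in inputs A, B and C, and 29.3%, 23.2% and 30.3% in the IP libraries. Their part in the ratios was not tested, and a ratio below is a change relative to other miRNAs, not an absolute amount. The 9 miRNAs listed as fibroblast markers held 43.7% to 60.1% of miRNA reads in the inputs and 11.2% to 15.6% in Ψ-IP, all 9 with reads. Of the defining markers of other cell types, miR-142a-3p (blood), miR-133a-3p and miR-133b-3p (muscle), miR-141-3p (epithelium) and miR-302a-3p and miR-302b-3p (embryonic stem cells) had 0 reads in all 6 KD6 libraries. The neuronal marker miR-124-3p had 2 reads in all, and miR-451a (blood), miR-1a-3p (muscle), miR-200c-3p and miR-205-5p (epithelium) and miR-126a-3p (endothelium) had at most 8, 38, 26, 19 and 16 reads in a library. Other listed markers did have reads. The liver marker miR-122-5p had 19, 362 and 503 reads in inputs A, B and C and 918, 574 and 749 in Ψ-IP. miR-9-5p, listed as neuronal, had 676, 21227 and 29416 in the inputs and 22240, 19377 and 43288 in Ψ-IP, and miR-9-3p at most 245 in a library. The muscle marker miR-206-3p had 37, 1246 and 2541 in the inputs and 1849, 1514 and 3281 in Ψ-IP. The part of these markers in the results was not tested.

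miRNAs split widely between the fractions. Of 550 miRNAs tested with edgeR's quasi-likelihood test, 392 (71.3%) passed a Benjamini-Hochberg adjusted p of 0.05, of which 197 (35.8% of those tested) were higher in Ψ-IP and 195 (35.5%) lower. All 3 IP libraries lay on 1 side of all 3 inputs for 326 miRNAs (59.3%), 186 above and 140 below. A fitted log2 ratio over 3 (more than 8-fold) was reached by 51 of the miRNAs that rose, and 98 of those that fell were below −3. The 98 include 28 miRNAs with 0 counts in every KD6 IP library. Fitted ratios of these 28 depend on the treatment of 0 counts, and the bounds from their summed counts, described below, start at 2.75-fold. The number of tested miRNAs with 0 counts in all KD6 inputs was 0, so the 51 and the 98 are not like counts. Without input A, 596 miRNAs were tested, and 165 (27.7%) were higher and 229 (38.4%) lower. Both fits called 352 miRNAs, each in the same direction, and their ratios correlated at an r of 0.998 across miRNAs, while the ratios without input A were lower by a median of 0.48 (log2). The 40 miRNAs called only with input A were all higher in Ψ-IP, and the 31 of these 550 called only without it were all lower.

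The share of miRNAs called higher depended on the scaling. Size factors from the median of ratios, the study's own choice, gave 50.3% of calls as higher, and the median log2 ratio over the 550 miRNAs was −0.00. TMM factors gave 44.3% (median −0.35), upper-quartile factors, which were added after the data had been seen, 59.1% (median 0.50), and leaving out input A 41.9% (median −0.34). Plain library size gave 34.1% (median −0.81), and the total of mapped reads 27.7% (median −1.14). Choosing other factors moves all log2 ratios by nearly the same amount, so the distances between miRNAs stay.

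**Figure D1:**
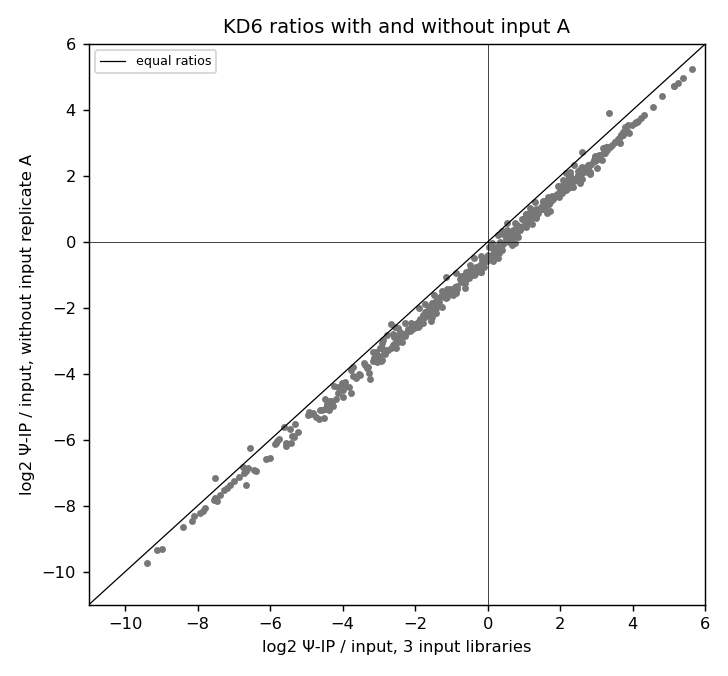
Log2 ratio of Ψ-IP to input in KD6 for each of 550 miRNAs, with all 3 input libraries (horizontal) and without input replicate A (vertical). Nearly all points lie a little below the line of equal ratios, with an r of 0.998 and a median shift of −0.48.

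**Figure D2:**
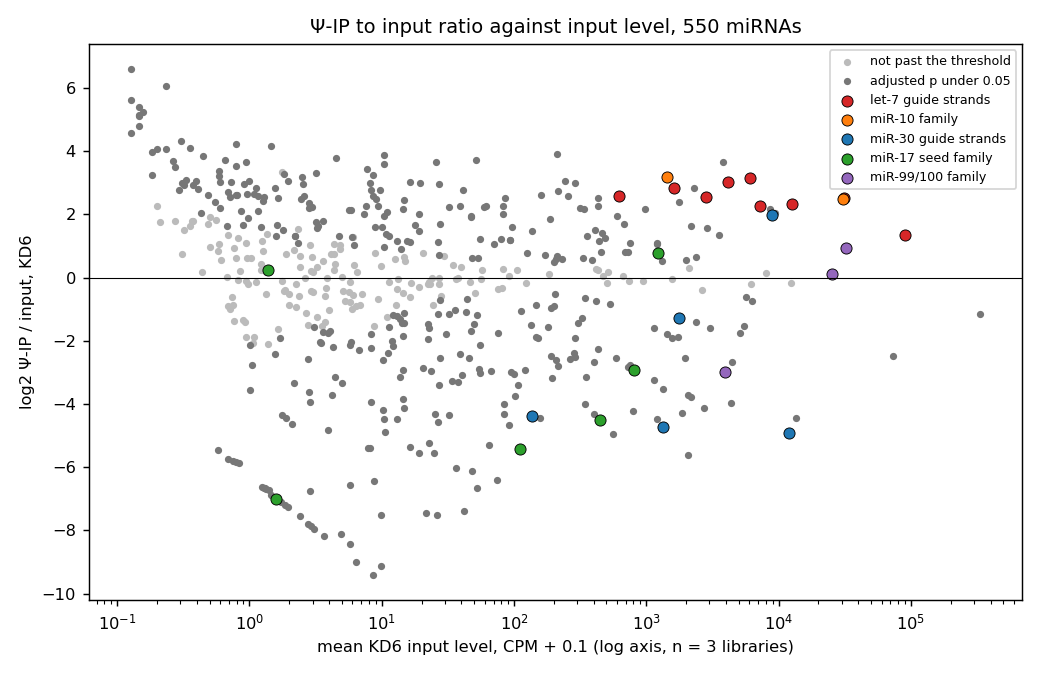
Log2 ratio of Ψ-IP to input (vertical) against the mean KD6 input level in CPM plus 0.1 (horizontal, log axis) for 550 miRNAs. Dark points passed an adjusted p of 0.05, and coloured points mark 5 families, of which the let-7 guide strands and the miR-10 family lie above 0 while the miR-30, miR-17 and miR-99/100 families span it.

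The 9 listed let-7 guide strands, tumour-suppressor miRNAs that target growth genes such as Ras and Hmga2, were higher in Ψ-IP in every case. All 9 rose, all 9 also without input A, with a median log2 ratio of 2.55 (1.91 without input A) beside −0.00 for all miRNAs tested. Over all miRNAs tested 35.8% were called higher, and 27.7% without input A. Their reads made up 14.0%, 22.1% and 20.1% of miRNA reads in inputs A, B and C, and 45.9%, 44.3% and 44.1% in the IP libraries. The IP share was thus 26.0 percentage points above the input share, without overlap, and the exact two-sided permutation p was 0.1, the smallest that 3 libraries against 3 allow.

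Levels of single miRNAs are given as CPM, a miRNA's counts per 1000000 counts of the library after scaling by the size factors, so that they need not add up to 1000000. let-7a-5p stood at 4177, 7597 and 6423 CPM in inputs A, B and C and at 70829, 50698 and 42164 in Ψ-IP A, B and C. The lowest IP library was above the highest input, with a log2 ratio of 3.17 ± 0.22 (SE, edgeR adjusted p = 6.1e-11), or 2.50 without input A. let-7e-5p, from a cluster in an intron of Spaca6, stood at 3703, 4427 and 4265 CPM in the inputs and at 38434, 33528 and 29509 in Ψ-IP, a log2 ratio of 3.03 ± 0.17 (2.50 without input A). let-7i-5p, the most abundant miRNA of the IP libraries, had the smallest ratio of the guide strands, 1.34 ± 0.16 (0.94 without input A), at 97650, 97144 and 76136 CPM in the inputs and 254580, 251410 and 181150 in Ψ-IP. The ratio of let-7i-5p was lower than that of let-7g-5p, which differs by the substitutions A17G and A19U (let-7g base first, counted from 1 at the 5′ end), by 1.00 on the log2 scale, and within libraries the let-7g to let-7i ratio of the IP libraries did not overlap that of the inputs. let-7 copies at several loci share reads that the authors' estimated counts divided among loci and close relatives, so values of single let-7 miRNAs are less certain than their sum.

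The other strand of the let-7 hairpins was mostly, but not always, higher as well. Of 11 passenger strands tested of 12 listed, 7 rose, 2 fell and 2 did not pass the test, with a median of 1.19 (0.76 without input A, 0.37 with plain library size). Over all tested miRNAs 35.8% were called higher and 35.5% lower. let-7a-1-3p (1.191) and let-7c-2-3p (1.1848), both among the 7, have the same mature sequence. They are not separate measurements, and the median is the value of that sequence. let-7d-3p had the highest ratio of the miRNAs with a mean of at least 100 CPM that met the rule below, 3.90 ± 0.26, from 158, 244 and 229 CPM in the inputs to 4590, 3042 and 2103 in Ψ-IP (adjusted p = 2.8e-11), or 3.31 without input A. It lay above its guide strand let-7d-5p (2.83 ± 0.28), and both come from an exon of the noncoding transcript 6720427I07Rik (let-7d-3p at chr13:48536024-48536045, minus strand). let-7b-3p rose by 2.96 ± 0.29, whereas let-7f-2-3p, from an intron of Huwe1 (chrX:151912403-151912423, plus strand), fell by 2.85 (SE 0.36) and let-7i-3p fell by 4.56 (SE 0.62). Without input A these were at 2.56, −3.37 and −5.09. let-7g-3p had too few reads to be tested.

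**Figure D3:**
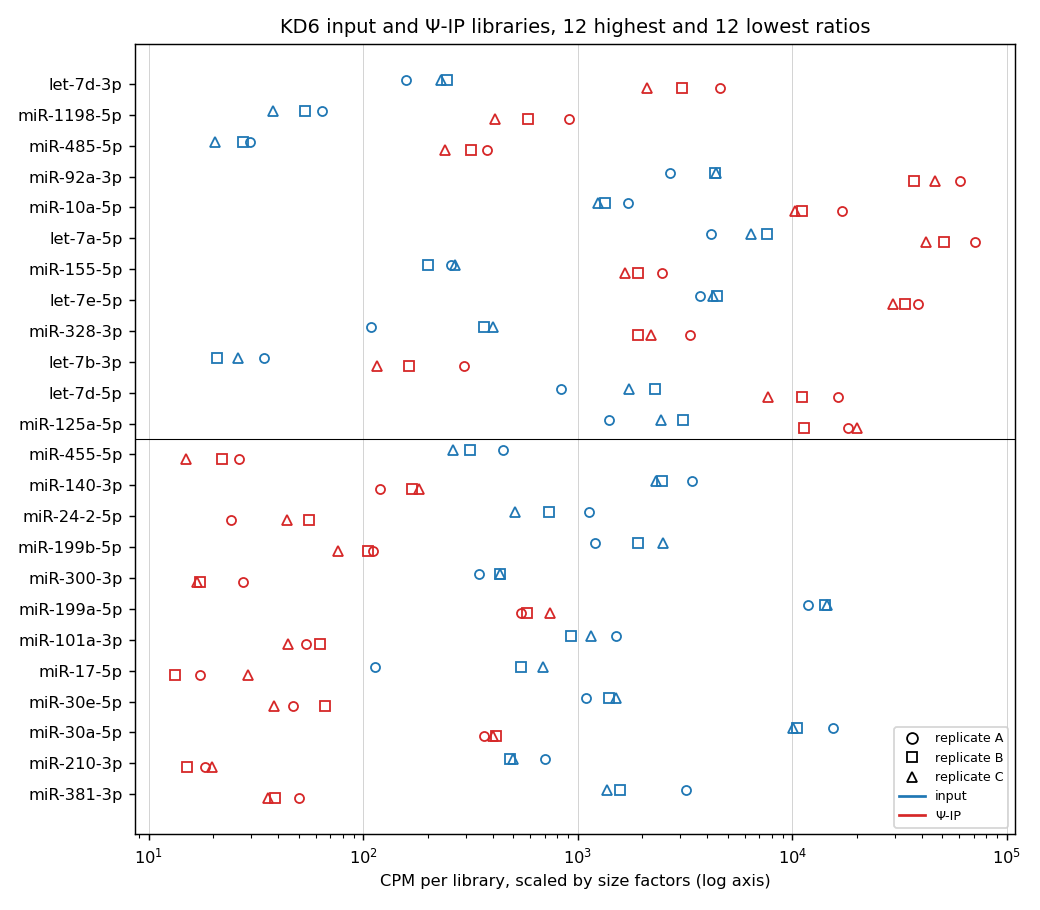
Level of the 12 miRNAs with the highest and the 12 with the lowest ratio of Ψ-IP to input in KD6, in CPM scaled by size factors (log axis), with 1 symbol per library (circle A, square B, triangle C; blue input, red Ψ-IP). For each miRNA the 3 IP libraries lie on 1 side of the 3 inputs, as the rule for choosing these miRNAs required. Input A stands apart for miR-17-5p and miR-328-3p.

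The 12 largest ratios in each direction were taken from 111 miRNAs with a mean of at least 100 CPM whose 3 IP libraries did not overlap the 3 inputs and that passed the threshold with and without input A. Beyond let-7, the highest were miR-1198-5p (3.72 ± 0.27), miR-485-5p (3.67 ± 0.25), miR-92a-3p (3.65 ± 0.22), miR-10a-5p (3.18 ± 0.22), miR-155-5p (3.07 ± 0.21), miR-328-3p (3.00 ± 0.31) and miR-125a-5p (2.83 ± 0.25). Without input A these were at 3.34, 3.25, 2.99, 2.85, 2.65, 2.23 and 2.12. miR-92a-3p, a member of the oncogenic miR-17/92 cluster, stood at 2686, 4352 and 4380 CPM in the inputs and 60161, 36848 and 46370 in Ψ-IP. This brought it among the 8 most abundant miRNAs of the IP libraries. Its relative miR-92b-3p rose by 3.24 ± 0.30, although input A held none of its reads, and by 2.68 without that library. miR-25-3p (0.31 ± 0.19) and miR-32-5p (−0.37 ± 0.31), which have the same seed, did not pass the test, and without input A miR-25-3p was at −0.34 and miR-32-5p was called lower at −0.99.

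The miR-10 family, encoded among the Hox genes, behaved alike in both members. miR-10b-5p, in introns of Hoxd3 and Hoxd4 (chr2:74726074-74726096, plus strand), stood at 35391, 27825 and 28107 CPM in the inputs and 206830, 159760 and 143970 in Ψ-IP, a log2 ratio of 2.48 ± 0.18 (2.14 without input A). The pair differ by U12A (miR-10a base first), and the family share went from 3.35% to 4.21% of miRNA reads in the inputs to 12.2% to 13.7% in Ψ-IP. miR-155-5p, an immune-response miRNA from an exon of Mir155hg (chr16:84714143-84714165, plus strand), stood at 257, 200 and 268 CPM in the inputs and 2468, 1912 and 1664 in Ψ-IP. miR-146b-5p rose by 1.11 ± 0.20 and miR-146a-5p, with at most 26 reads in a library, was at −0.39 ± 0.69. The miR-26 family rose in 2 of 2 members (2.04 ± 0.20 and 1.71 ± 0.34, or 1.47 and 0.95 without input A), beside 35.8% of all tested miRNAs.

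Among the miRNAs with the lowest ratios, miR-381-3p of the imprinted miR-379/410 cluster fell from 3199, 1579 and 1367 CPM in the inputs to 50.2, 38.8 and 36.0 in Ψ-IP. Its log2 ratio was −5.61 ± 0.31 (adjusted p = 1.5e-12). Input A was the highest of all, but the ratio was also −5.61 without it. miR-210-3p, the hypoxia-induced miRNA (chr7:141221407-141221428, minus strand, no other gene annotated on its strand), stood at 706, 482 and 496 CPM in the inputs and 18.2, 15.1 and 19.7 in Ψ-IP, a log2 ratio of −4.95 ± 0.23 (−5.23 without input A). miR-101a-3p, which targets Ezh2, stood at 1511, 933 and 1153 CPM against 53.8, 62.6 and 44.4, a log2 ratio of −4.48 ± 0.23 (−4.75 without input A). That the fractions of these miRNAs did not overlap was a condition of their choice. The others were miR-30a-5p, miR-30e-5p, miR-17-5p, miR-199a-5p, miR-300-3p, miR-199b-5p, miR-24-2-5p, miR-140-3p and miR-455-5p, with log2 ratios of −4.93 to −4.01. All 24 kept their direction and their call in each of 21 other settings. They had been chosen as the largest ratios past the threshold with and without input A. This stability was therefore in part fixed by the choice and is not independent support.

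By share of reads, the largest fall among the abundant miRNAs was that of miR-21a-5p, the main miRNA of these fibroblasts, from an exon of Vmp1 (chr11:86584120-86584141, minus strand). It held 48.1%, 32.8% and 29.5% of miRNA reads in inputs A, B and C and 10.1%, 13.4% and 8.55% in Ψ-IP (exact permutation p = 0.1, the smallest possible). The share in input A is well above that of the other inputs, and the mean share dropped by 26.1 percentage points. Relative to all miRNAs its log2 ratio was −1.14 ± 0.29 (adjusted p = 0.0014), and −1.08 without input A. miR-143-3p, a smooth muscle and fibroblast miRNA, went from 8.37% ± 0.81 to 0.958% ± 0.22 (SD, n = 3), with a log2 ratio of −2.48 ± 0.22 (−2.61 without input A). Of the 9 fibroblast-listed miRNAs, 6 fell and none rose, and all 9 fell without input A. Among the 9, miR-199a-3p and miR-199b-3p had near-equal log2 ratios (−0.18 and −0.19). Their reads were 1528 and 761 in input A and 32755 and 16240 in IP A, so they may not be separate measurements. Over all tested miRNAs 35.5% fell, and 38.4% without input A. The 10 most abundant miRNAs held 69.0% to 82.7% of the miRNA reads in the inputs and 72.1% to 75.2% in Ψ-IP.

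Families in which all tested members fell were miR-29 (3 of 3, median −2.15), miR-101 (2 of 2, −4.09), miR-148 with its relatives (3 of 3, −3.01), miR-181 (4 of 4, −2.05), miR-103 with its relative (2 of 2, −1.75) and the guide strands of the miR-23/24/27 clusters (5 of 5, −1.74). Without input A the same numbers fell. Over all tested miRNAs 35.5% were called lower and 35.8% higher (38.4% and 27.7% without input A). These families were picked because all their members fell. Relatives can be near-identical in sequence, so members are not independent of each other. The miR-29 family, which represses collagens, held 0.296% to 1.70% of the input reads and 0.124% to 0.192% of the Ψ-IP reads. Its 3 input shares differed by several-fold, but none came down to the IP shares. miR-221 and miR-222 rose in 2 of 2 with input A and in 1 of 2 without it, where miR-221-3p was at −0.11 in place of 0.67.

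**Figure D4:**
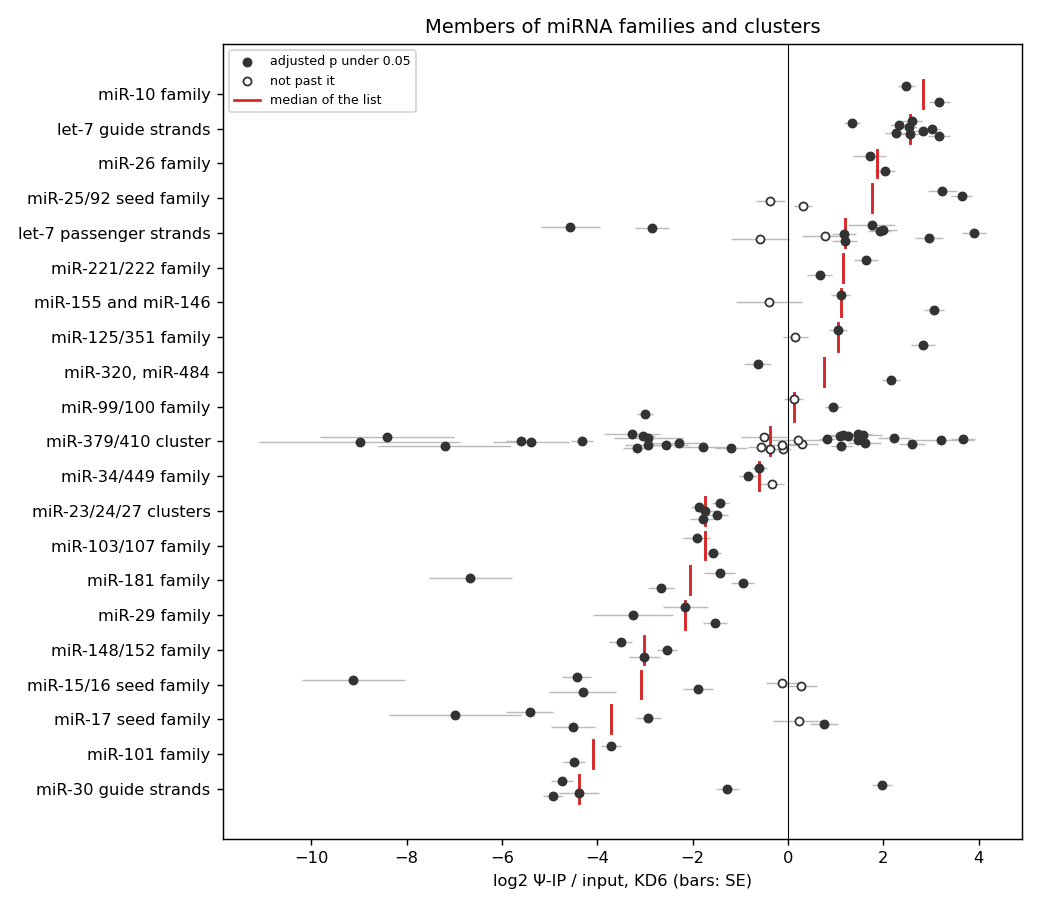
Log2 ratio of Ψ-IP to input in KD6 for the members of 21 families and clusters (points, bars are SE), filled where the adjusted p was under 0.05, with the median of each list as a red line. The miR-10 family and let-7 guide strands lie highest, the miR-30 guide strands lowest, and the miR-30, miR-17, miR-99/100 and miR-379/410 lists spread over both sides of 0.

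Other families split. In the miR-30 family, regulators of differentiation and autophagy, 4 of 5 members tested fell and 1 rose. miR-30a-5p stood at 15533, 10455 and 10030 CPM in the inputs and 365, 414 and 401 in Ψ-IP (−4.93 ± 0.20). miR-30d-5p stood at 10719, 8790 and 7343 CPM in the inputs and 42778, 38431 and 23827 in Ψ-IP (1.97 ± 0.21). These relatives were at like levels in input and far apart in Ψ-IP. miR-30c-5p lay between them at −1.27 ± 0.24. miR-30a-5p and miR-30e-5p, which differ by C13U (miR-30a base first), had ratios 0.19 apart. Without input A the ratios were −5.16 for miR-30a-5p, −1.97 for miR-30c-5p and 1.66 for miR-30d-5p.

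In the family with the seed of miR-17, which promotes cell-cycle entry, 4 of 6 members fell and 1 rose with input A (median −3.72), and 4 fell and 0 rose without it (median −4.46). miR-17-5p stood at 114, 540 and 684 CPM in the inputs and 17.4, 13.3 and 29.0 in Ψ-IP (−4.51 ± 0.45). Input A was the lowest input by far but still above every IP library. miR-20a-5p stood at 504, 1347 and 1821 CPM in the inputs and 2121, 1821 and 2398 in Ψ-IP. Its log2 ratio was 0.76 ± 0.29 (adjusted p = 0.024) and −0.04 without input A, so its call rested on that library, and it was also below 0 with plain library size (−0.06) and with the total of mapped reads (−0.39). miR-106b-5p fell by 5.41 (SE 0.49) and miR-93-5p fell by 2.93 (SE 0.27). Without input A, miR-17-5p was at −5.35, miR-106b-5p at −6.09 and miR-93-5p at −3.57.

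The miR-15/16 family, which restrains the cell cycle, showed a like split: 4 of 6 fell, while miR-16-5p (0.28 ± 0.33) and miR-195a-5p (−0.12 ± 0.34) did not pass the test, nor did they without input A (−0.47 and −0.65). miR-497a-5p had 2, 75 and 110 reads in inputs A, B and C and 0 in each IP library. Against a floor of 3 counts over the IP group, it was at least 32.1-fold lower in Ψ-IP on summed counts and 32.7-fold on the mean of the CPM values. In all, 28 of the tested miRNAs had 0 counts in every KD6 IP library, with bounds from 2.75-fold to 41.5-fold on summed counts and from 1.61-fold to 32.7-fold on mean CPM. Such bounds cover counting error only, since the reads carried no molecular identifiers and PCR copies cannot be told from molecules.

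Near-identical miRNAs could be compared inside each library, where no scaling between libraries enters. Among 253 miRNAs with a mean of at least 10 CPM, 36 pairs differed by 1 or 2 substitutions. Any difference in length at the 3′ end was not counted. The log2 ratios of 29 of these pairs were less than 1 apart. The median distance of a pair was 0.49, beside 2.48 for any 2 of the 253, although 14 of the pairs are let-7 guide strands and share members. In 6 pairs the distance was over 3, and 1 of these repeats another, because let-7a-1-3p and let-7c-2-3p have the same sequence. Shared reads of near-identical miRNAs may have been divided between them by the authors' counting, so single values are uncertain.

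miR-100-5p and miR-99a-5p, from an intron of 3110039I08Rik (chr9:41531437-41531458, plus strand) and an intron of Mir99ahg (chr16:77598940-77598961, plus strand), differ by A16U (miR-100 base first). With 0.5 CPM added to each level, here and for the other pairs, miR-100-5p was 9.41, 4.95 and 5.41 times as abundant as miR-99a-5p in inputs A, B and C, and 57.9, 62.7 and 49.5 times in the IP libraries. Every IP library lay above every input. The log2 ratio of miR-99a-5p was −2.998 ± 0.17 and that of miR-100-5p 0.12 ± 0.20, and the gap of 3.12 was 3.45 without input A. The remaining member, miR-99b-5p, rose by 0.95 ± 0.17 but was at −0.07 with the total of mapped reads.

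miR-17-5p and miR-20a-5p differ by C1U and C12U (miR-17 base first). miR-17-5p was at 0.226, 0.401 and 0.376 times the level of miR-20a-5p in the inputs and at 0.00847, 0.00765 and 0.0123 times in Ψ-IP. miR-19a-3p and miR-19b-3p, which differ by U11C (miR-19a base first), changed places. miR-19a-3p was at 0.608, 0.194 and 0.157 times miR-19b-3p in the inputs and at 6.67, 5.37 and 2.69 times in Ψ-IP, although miR-19b-3p had only 3 reads in IP A and 5 in input A. miR-181a-1-3p was 4.33, 2.89 and 3.33 times miR-181a-2-3p in the inputs and 0.0199, 0.0476 and 0.0491 times in Ψ-IP, across the substitutions U5C and U16C. It had 0, 3 and 4 reads in IP A, B and C. let-7a-1-3p was 6.42, 4.53 and 3.08 times let-7f-2-3p in the inputs and 59.4, 80.9 and 39.8 times in Ψ-IP. They differ by A8G, the last base of the seed, and in length (22 bases for let-7a-1-3p and 21 for let-7f-2-3p). let-7f-2-3p stood at a mean of only 3.10 CPM in Ψ-IP. let-7a-1-3p has the same mature sequence as let-7c-2-3p. The 2 names stood at a mean of 92.5 and 92.4 CPM in the inputs and 209 and 208 in Ψ-IP. Their near-equal ratios are thus not separate measurements, and 1 name may hold only part of the reads of that sequence. All 5 pairs were apart in every KD6 library, and the gaps were on the same side in WT (2.92 to 5.24 in size) and in KD3 (2.07 to 5.83).

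**Figure D5:**
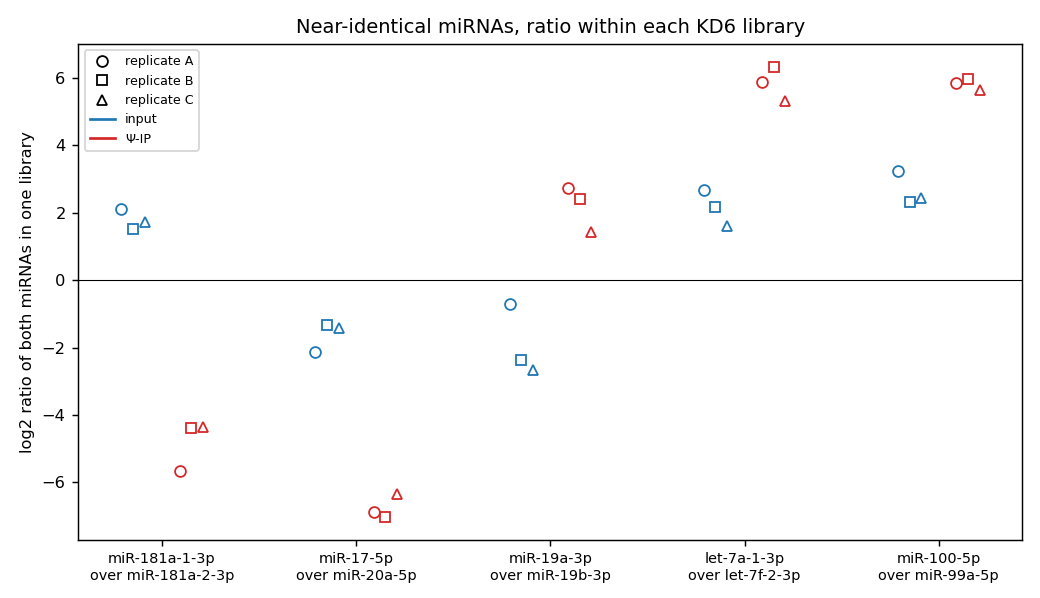
Log2 ratio of the levels of 2 near-identical miRNAs within each KD6 library (vertical, CPM plus 0.5), for 5 pairs that differ by 1 or 2 bases, with blue for input, red for Ψ-IP and 1 symbol per replicate. In each pair the 3 red symbols lie clear of the 3 blue ones, and miR-19a-3p over miR-19b-3p and miR-181a-1-3p over miR-181a-2-3p cross 0.

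The 2 arms of a hairpin could be on the same or on different sides. Of 172 hairpins with both arms tested, both rose in 28, both fell in 48, and the arms went in opposite directions in 33, beside 35.8% of all tested miRNAs called higher and 35.5% lower. Without input A these numbers were 20, 53 and 30. The ratios of the arms correlated at a Pearson r of 0.34 across hairpins (Spearman 0.34), given as a description because arms share libraries. miR-30a-3p rose by 0.62 ± 0.17 and miR-30e-3p by 0.50 ± 0.18 where their 5p arms had fallen, but neither passed the test without input A and both were below 0 with plain library size or the total of mapped reads. miR-199a-5p stood at 11830, 14176 and 14512 CPM in the inputs and 545, 577 and 745 in Ψ-IP (−4.44 ± 0.24). Its 3p arm stood at 7544, 15080 and 14447 CPM in the inputs and 13248, 8652 and 10894 in Ψ-IP (−0.18 ± 0.21, not past the test). The 3p arm thus overlapped between fractions, mainly through input A, and without that library its ratio was −0.90. miR-382-5p rose by 1.47 ± 0.22 while miR-382-3p fell by 2.48, or 0.99 and −3.02 without input A.

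Neighbouring hairpins could be called in the same or in opposite directions. Hairpins within 10000 bases of each other on 1 strand formed 31 groups with at least 3 tested miRNAs, and 19 of them held members called in both directions (15 without input A), beside 35.8% higher and 35.5% lower over all tested miRNAs, so nothing particular to such groups is read from this. In the miR-17/92 cluster (chr14:115043671-115044506, plus strand, in the transcript Mir17hg) 10 miRNAs were tested, of which 3 rose and 5 fell. From the same transcript, miR-92a-3p was at 3.65, miR-20a-5p at 0.76, miR-19a-3p at −0.29, miR-17-5p at −4.51 and miR-19b-3p at −4.65 (2.99, −0.04, −0.79, −5.35 and −5.36 without input A), although miR-92a-3p and miR-19b-3p also have a copy on chromosome X. miR-18a-5p had 675 reads over the inputs and 2 over the IP libraries, a ratio of counts 174-fold lower in Ψ-IP with a 95% exact counting interval of 47.9-fold to 1440-fold. In the cluster of miR-106b, miR-93 and miR-25, within Mcm7 (chr5:138165321-138165818, minus strand), 1 rose and 4 fell of 6. Groups in which all tested miRNAs rose included those of let-7d, let-7f-1 and let-7a-1 (6 of 6 rose), let-7c-2 and let-7b (4 of 4 rose) and let-7e and miR-125a (4 of 4 rose). The sequence shared by let-7a-1-3p and let-7c-2-3p is counted in the let-7a-1 group and again in the let-7c-2 group. In the miR-379/410 list of imprinted miRNAs, 13 of 35 rose and 15 fell (median −0.38), with miR-485-5p and miR-543-3p (2.61 ± 0.27) among those that rose and miR-381-3p among those that fell. miR-376a-3p, with 224 input reads and 0 in Ψ-IP, was at least 38.4-fold lower on summed counts and 21.2-fold on mean CPM.

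Base composition went with the ratio only loosely. Across the 253 miRNAs with a mean of at least 10 CPM, the log2 ratio correlated with the number of uridines at a Pearson r of 0.24 (Spearman 0.27) and with the number of adenosines at −0.35 (Spearman −0.36), and equally so without input A (0.24 and −0.36). These miRNAs share libraries and families, so no test is given. Over all 550 tested miRNAs 35.8% were called higher and 35.5% lower. Of the 221 among these 253 without the motif named below, 42.1% rose and 39.8% fell. Of 43 miRNAs with 9 or more uridines, 30 rose and 6 fell, with a median of 1.36. Of 99 with 5 to 6 uridines, 29 rose and 52 fell, with a median of −0.86. Of 39 with 4 or fewer, 14 rose and 18 fell (−0.17), so the levels did not run in strict order. Of 60 miRNAs with 3 or fewer adenosines, 38 rose and 8 fell (median 1.04), and of 80 with 6 to 7, 20 rose and 45 fell (−1.20). Of 22 with 8 or more, 4 rose and 12 fell (−0.89), so the adenosine classes did not run in strict order either. Without input A the medians were 0.94, −1.41 and −0.75 for these uridine classes and 0.59, −1.72 and −1.42 for these adenosine classes. Length (r = 0.02) and GC content (r = 0.09) had smaller r in these 253 miRNAs. In all 475 with a sequence, r was 0.087 for uridines, −0.29 for adenosines, 0.19 for GC content and 0.011 for length, so the order of uridines and GC content turned over with the set. By first base, in all 475 miRNAs with a sequence, the median was 0.64 for U (201 miRNAs) and −1.01 for A (126), with C and G between (0.14 for U and −1.51 for A without input A). The motif UNUAA or UNUAG, a context linked to PUS7 and not to PUS1, was in 10.1% of the tested sequences and in 10.4% of all mature miRNAs of the reference. It was searched on the miRNA strand only, with N for any base. Of the 48 tested miRNAs that hold it, 21 rose (43.8%) and 19 fell (39.6%), beside 34.9% and 35.1% of the 427 without it. The difference was not tested.

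The study picked 4 miRNAs for a response to the knockdown on these libraries, so they are not independent evidence. Their log2 ratios at day 6 ran from −0.03 to 0.76, beside a median of −0.00 over all miRNAs tested. miR-342-3p (0.04 ± 0.27), miR-30c-1-3p (−0.03 ± 0.29) and miR-16-5p (0.28 ± 0.33) did not pass the test, and miR-20a-5p passed it only with input A. Their fractions overlapped in all 4 cases. miR-16-5p, for example, stood at 183, 346 and 720 CPM in the inputs and 458, 413 and 707 in Ψ-IP. The median ratio of the 4 was 0.16 at day 6, 1.08 in WT and 1.26 at day 3. As differences in ratio from WT they were −1.21 for miR-342-3p, −0.84 for miR-30c-1-3p, −0.81 for miR-16-5p and −0.29 for miR-20a-5p, with adjusted p of 0.11 to 0.75, so none passed the threshold. Against WT, 2 of the 4 had an unadjusted p under 0.05 by the edgeR interaction test. Against KD3 the difference for miR-16-5p was −1.22 (edgeR adjusted p = 0.14). Without input A its adjusted p against KD3 was 0.037, and it was then among 21 of 596 miRNAs called. Without input A the median ratio of the 4 at day 6 was −0.48, and none was called in Ψ-IP against input.

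The change in the ratio itself between conditions passed the test for few miRNAs. Against WT, 0 of 550 miRNAs (0.0%) passed the edgeR quasi-likelihood interaction test, with 119 at an unadjusted p under 0.05 and 35 calls by DESeq2, 29 of them higher in KD6. Leaving out input A gave 14 calls, and leaving out IP C of KD6 gave 57. Against KD3, 1 miRNA (0.182%), miR-17-3p, passed, with 112 at an unadjusted p under 0.05, and the count was 21 without input A and 63 without IP C. The median difference in log2 ratio over all miRNAs was 0.25 against WT and 0.16 against KD3. The ratios of the let-7 guide strands lay above those in WT for 9 of 9, by 0.30 (let-7e-5p) to 1.30 (let-7d-5p), but for 7 of 9 with plain library size and 5 of 9 with the total of mapped reads. The smallest adjusted p by edgeR, 0.085 for let-7f-5p and let-7a-5p, missed the threshold, whereas DESeq2 called let-7f-5p (adjusted p = 0.0037), let-7a-5p (0.014), let-7d-5p and let-7i-5p (0.024 each) and let-7c-5p (0.039). Without input A the difference for let-7f-5p was 0.83 (adjusted p = 0.040) and that for let-7e-5p 0.05. The share of miRNA reads held by the let-7 guide strands in Ψ-IP was 44.8% ± 0.99 (SD, n = 3) in KD6 beside 18.7% ± 4.19 in the KD6 inputs, and the WT means were 38.7% in Ψ-IP and 18.2% in input.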

How the data were processed

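Per the labels and the study's methods, the authors trimmed the 3′ adapter from small RNA reads and ran SeqImp (version not given in the sources used here) with mm10 and with Ensembl and miRBase annotation, and deposited estimated counts per mature miRNA and locus. Fractional values made up 47.0% of the deposited entries above 0. The row of library totals was left out of tests. Rows of 1 mature miRNA were summed (1907 miRNAs from 2045 rows, 1025 with reads in KD6) and rounded. The test was edgeR 4.0.16 under R 4.3.3 (median-ratio factors, filterByExpr, quasi-likelihood test, Benjamini-Hochberg adjustment, threshold 0.05) in 1 model of 6 groups over 18 libraries, and again without replicate A of the KD6 input. A log2 ratio is followed by its SE. Changes in ratio between conditions were interaction contrasts. CPM use the effective library sizes. DESeq2 1.42.0 and other settings were alternatives. The procedure was tested on simulated counts. Depth in the 6 KD6 libraries was 241109 to 9256836 mapped reads, and intervals cover counting error only. Shares were compared with exact permutation tests in SciPy 1.17.1.

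Members, lists, tests and alternatives were chosen with earlier results of these data known. The rule for named miRNAs took the 12 largest ratios in each direction among miRNAs averaging 100 CPM or more in KD6 whose 3 IP libraries did not overlap the 3 inputs, past the threshold with and without input A, plus the 8 most abundant of each fraction and members of the lists. Other miRNAs named as pairs, arms or clusters were singled out after their values were seen. Deposited coordinates (chromosome and 5′ end) matched RefSeq on GRCm38.p6 for 1677 of 1683 rows with a shared name, and host genes are from GENCODE M21. Replicate letters did not meet the criterion for pairing IP with input libraries in KD6, a correlation over 0.1 for every letter: same-letter deviations correlated at 0.142, −0.182 and 0.522 across 188 miRNAs. Columns of distinct read sequences were not used for tests.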

Additional observations from a re-analysis of the deposited data

Results flagged for a closer look

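miR-17-3p, the other strand of the miR-17 hairpin, was singled out because its change in the Ψ-IP to input ratio differed between conditions by the interaction test. Its log2 ratio was lower in KD6 than in KD3 by a fitted difference of −5.01 ± 0.95 (edgeR adjusted p = 0.016, DESeq2 adjusted p = 0.0096). In KD6 it had 8, 110 and 279 reads in inputs A, B and C and 1, 0 and 0 in Ψ-IP A, B and C, so the size of the fitted difference depends on the treatment of very low counts. As a ratio of counts it was 204-fold lower in KD6 Ψ-IP, with a 95% exact counting interval of 36.5-fold to 8090-fold. In KD3 it stood at 16.9 ± 1.41 CPM in input and 2.85 ± 0.90 in Ψ-IP (SD, n = 3), and in WT at 17.8 ± 4.23 and 0.617 ± 0.35. Dropping IP C of KD3, input C of KD6 or IP B of KD6 each left 0 calls (adjusted p of 0.0516 to 0.129 at the lowest).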

How the results depend on the processing

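With the total of mapped reads as library size, 109 miRNAs were higher in Ψ-IP, 51 differed from WT and 8 from KD3, and the let-7 guide strands gained 15.4 percentage points of mapped reads in place of 26.0 of miRNA reads. DESeq2 called 35 differences from WT and 28 from KD3 (267 and 256 miRNAs without an adjusted p), and plain library size 12 from KD3. Leaving out 1 library at a time gave 0 to 57 differences from WT and 0 to 63 from KD3, with the highest counts without IP C of KD6. The cause of these changes was not tested. The KD6 count of 392 was 379 with TMM factors, 385 with DESeq2, 350 with a minimum mean of 10 counts, 417 without a filter, 301 beyond 2-fold and 272 in the 6 KD6 libraries alone.

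Several log2 ratios changed sign. With plain library size miR-100-5p was at −0.54, miR-20a-5p at −0.0568 and miR-221-3p at −0.16. With the total of mapped reads miR-100-5p was at −0.87, miR-125b-5p at −0.94, miR-181a-2-3p at −0.26, miR-20a-5p at −0.39, miR-221-3p at −0.49, miR-25-3p at −0.80, miR-342-3p at −1.04, miR-351-5p at −0.024 and miR-99b-5p at −0.073. The same scaling put the median of the miR-125 family at −0.024, of miR-221 and miR-222 at −0.0003448 and of miR-320 and miR-484 at −0.32, and upper-quartile factors put the miR-379/410 list at 0.034. In the 6 KD6 libraries without input A, miR-20a-5p was at −0.026 and miR-221-3p at −0.085. Leaving out 1 library at a time gave −0.58 to 0.41 for miR-125b-5p, −0.042 to 1.16 for miR-20a-5p and −0.11 to 0.89 for miR-221-3p, each lowest without input A.

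A replicate block by letter in the 6 KD6 libraries called 271 miRNAs against 272 without it, and a block by pair over 18 libraries called 361 with 0 differences from WT and 1 from KD3. IP A and IP C correlated best with the input of their own letter (0.142 and 0.522), and IP B with input A (0.429). Input A had the fewest mapped reads of the KD6 libraries, 241109.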
